A study of Caenorhabditis elegans with 2 samples.

Results

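Peaks of a chromatin immunoprecipitation in the large piRNA gene clusters of Caenorhabditis elegans chromosome IV were examined. The members are all peaks of the deposited lists whose summit lies on chromosome IV from 4.5 to 7 Mb (the first cluster) or from 13.5 to 17.2 Mb (the second cluster), on the ce11 assembly. The pooled list held 1549 such peaks of 30000 in all, the list of replicate 1 held 1569 of 30000 and that of replicate 2 held 1601 of 30000. The rule uses positions only, so peak strength played no part in the choice.

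ChIP-seq was done on whole first-stage (L1) larvae of strain OP643, in 2 biological replicates that form 1 group. The strain carries wgIs643, a transgene in which hlh-17 is fused to TY1, EGFP and 3xFLAG tags and which also holds unc-119(+), in an unc-119(tm4063) background. Every animal thus has a tagged copy of hlh-17, a basic helix-loop-helix transcription factor gene known from glia, and a rescue copy of unc-119. Larvae of both sexes were pooled, were starved after bleaching and were 6 h old. Chromatin was sonicated to 200 to 800 bp, and the tagged protein was recovered with an antibody against GFP. A single transgenic strain was used and no untreated or untagged group was analysed here, so peaks cannot be compared between conditions, and the only spread is that between the replicates.

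piRNAs are short RNAs of the germline that are bound by the Piwi protein PRG-1 and guide it to transcripts that are silenced. In this worm most of them are made from a great many tiny genes, each transcribed from its own start, that sit in introns and between genes of chromosome IV. Many of these genes carry an upstream motif with the core CTGTTTCA and give an RNA that starts with U (T in the DNA). The animals were whole L1 larvae, in which few cells belong to the germline, and cells cannot be told apart in these lists.

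The clusters covered 35.4% of chromosome IV and held 96.5% of its annotated piRNA genes, 2816 in the first cluster and 11388 in the second of 14714 on the chromosome. The annotation therefore bears out the name of the regions. The first base of the piRNA was T in 96.2% of the cluster genes, and CTGTTTCA lay in the 80 bp upstream of 34.98% of them, with a median distance of 46 bp from the motif to the start. The sequences below are those of piRNA genes under the highest-ranked peaks at piRNA starts. Each runs 5′ to 3′ on the strand of the gene, from 60 bp upstream of the start to the end of the piRNA, in the RefSeq sequence of WBcel235, which ce11 denotes. The capitals at the end mark the 21 bases of the annotated piRNA, and capitals within the upstream part mark CTGTTTCA where it occurs.
21ur-2623, chrIV:16536115-16536195, minus strand, peak of rank 302: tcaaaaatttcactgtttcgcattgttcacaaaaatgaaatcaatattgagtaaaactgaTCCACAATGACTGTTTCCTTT
21ur-14657, chrIV:13715029-13715109, plus strand, peak of rank 314: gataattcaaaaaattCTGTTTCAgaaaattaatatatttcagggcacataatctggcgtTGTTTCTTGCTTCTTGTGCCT
21ur-12897, chrIV:5881041-5881121, plus strand, peak of rank 416: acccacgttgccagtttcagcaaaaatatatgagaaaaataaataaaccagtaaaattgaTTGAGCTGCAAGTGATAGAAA
21ur-10844, chrIV:16074795-16074875, minus strand, peak of rank 885: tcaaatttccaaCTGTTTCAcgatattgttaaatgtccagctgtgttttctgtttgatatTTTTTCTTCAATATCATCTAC

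The 9 strongest pooled cluster peaks all had summits over 100 bp from a piRNA start, while 15.6% of all pooled cluster peaks lay within 100 bp. A peak's rank is its place by the authors' signal value within 1 list, so rank 1 is the strongest. The next sequences are those within 50 bp of the summits of 4 cluster peaks that are also on the thresholded list, which holds the 115 peaks kept by the irreproducible discovery rate. They are shown because the peak of rank 4 is the strongest in the clusters, and because the other 3 share the word CGAGAGGAGTACACGGC or its reverse complement GCCGTGTACTCCTCTCG, which is in capitals.
Rank 4, cel-mir-52, chrIV:14034056-14034156, plus strand: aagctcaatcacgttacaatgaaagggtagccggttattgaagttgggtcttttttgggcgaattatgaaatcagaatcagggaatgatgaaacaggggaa
Rank 21, intron of Y65A5A.2, chrIV:16415233-16415333, plus strand: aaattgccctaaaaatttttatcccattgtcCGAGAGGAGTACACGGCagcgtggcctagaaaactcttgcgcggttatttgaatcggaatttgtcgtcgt
Rank 29, intron of Y65A5A.2, chrIV:16415745-16415845, plus strand: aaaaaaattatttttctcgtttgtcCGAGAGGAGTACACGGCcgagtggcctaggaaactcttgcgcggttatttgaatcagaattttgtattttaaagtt
Rank 34, promoter of Y73B6BL.29, chrIV:6321854-6321954, plus strand: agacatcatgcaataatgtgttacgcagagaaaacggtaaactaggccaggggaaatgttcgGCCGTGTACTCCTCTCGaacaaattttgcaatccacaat

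Peaks were less dense in the second cluster than in the first cluster or elsewhere on the chromosome. The second cluster had 223, 229 and 228 peaks per Mb in the pooled, replicate 1 and replicate 2 lists. The first cluster had 289, 289 and 303 peaks per Mb in the same lists. The rest of chromosome IV had 307, 307 and 299 peaks per Mb. The second cluster was thus below every other stretch in all 3 lists, while the first cluster lay below the rest of the chromosome in the pooled list and that of replicate 1 and slightly above it in that of replicate 2.

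Over both clusters together the density was 0.813 times that of the rest of chromosome IV in the pooled list. It was 0.824 times in the list of replicate 1 and 0.865 times in that of replicate 2. The clusters held 30.9% of the pooled peaks of the chromosome (95% exact Clopper-Pearson interval 29.6 to 32.2), against 35.4% of its length. Intervals here treat peaks as independent and cover counting error only. The replicates share the strain, the control and the reference, and a density ratio from 1 group has no test.

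The stretches outside the clusters differed little among themselves. Densities in the 3 lists were 312, 315 and 301.3 peaks per Mb left of the first cluster, and 304, 303 and 298 between the clusters. The short stretch right of the second cluster, 0.294 Mb long, had 299, 282 and 279 peaks per Mb.

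**Figure D1:**
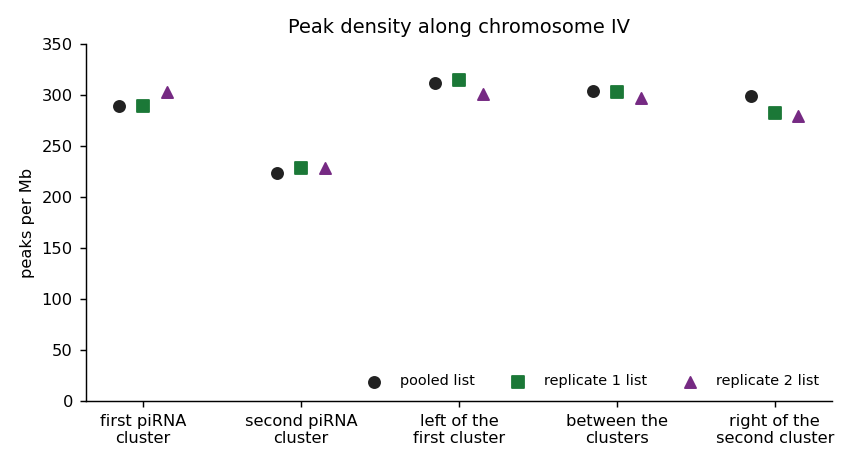
Peaks per Mb (vertical axis) in the first and second piRNA cluster and in the 3 other stretches of chromosome IV, with 1 point for each list (pooled, replicate 1, replicate 2). The second cluster sits between 223 and 229 peaks per Mb, below every other stretch, and the first cluster sits between 289 and 303.

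In steps of 0.5 Mb the same order held along the chromosome. The 7 steps of the second cluster that lay wholly inside it had 108 to 124 pooled peaks, with a median of 109. The 5 steps of the first cluster had 123 to 166, with a median of 144, and the 22 steps outside had 112 to 181, with a median of 155. The ranges overlapped, since the lowest step outside the clusters lay within that of the second cluster.

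Density moved with the base composition of the steps. Across the 34 steps, pooled peak counts ran against the number of piRNA genes (Spearman's rho −0.54) and with GC content (0.63) and the number of protein-coding genes (0.41). The corresponding values were −0.64, 0.67 and 0.46 in the list of replicate 1 and −0.40, 0.52 and 0.39 in that of replicate 2. Steps share libraries and neighbours, and piRNA genes, GC content and gene number vary together, so these values only describe the chromosome.

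Peaks just inside and just outside the bounds were counted in the 0.25 Mb on each side of each bound. The pooled list had 97 peaks inside and 90 outside at the left bound of the first cluster, where 2 and 9 piRNA genes lie. At its right bound it had 71 inside and 93 outside, with 112 and 25 piRNA genes, and the replicates had 85 and 67 inside against 92 and 77 outside. The left bound of the second cluster had 54 inside and 61 outside, although piRNA genes numbered 428 and 5. The right bound of the second cluster had 48 inside and 75 outside, with 443 and 169 piRNA genes, and the replicates had 50 and 45 inside against 73 and 69 outside.

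GC content differed between the stretches as well. The second cluster had a GC content of 32.3%, the first 34.0% and the rest of chromosome IV 35.5%. GC content within 50 bp of pooled summits averaged 39.7% in the second cluster, 39.4% in the first and 41.0% in the rest, so summits were richer in GC than the sequence around them in all 3. In an alternative chosen after the data were seen, the rest of the chromosome was weighted to the GC content of the clusters. The density ratio was then 0.995 over both clusters, 1.07 for the first cluster alone and 0.939 for the second alone.

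Within bands of equal GC content, peak densities in the clusters and outside them differed less than between bands, though not evenly. Sequence below 25% GC had 38.6 pooled peaks per Mb in the clusters and 36.5 in the rest of the chromosome, and in replicate 1 it had 38.6 in the clusters and 58.8 in the rest. From 25 to 30% GC the clusters had 104 pooled peaks per Mb and the rest 129. In replicate 1 the clusters had 107 and the rest 143, and in replicate 2 they had 124 and 127. Between 30 and 35% GC there were 221 in the clusters and 215 in the rest. Above 50% GC there were 691 in the clusters and 757 in the rest. Sequence below 25% GC made up 19.2% of the clusters and 11.1% of the rest of the chromosome, and that from 25 to 30% made up 24.4% and 17.3%.

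**Figure D2:**
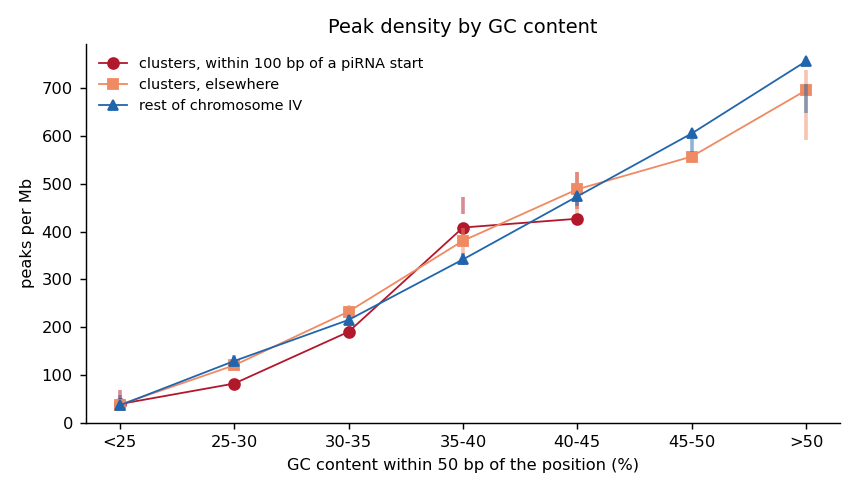
Pooled peaks per Mb (vertical axis) by the GC content within 50 bp of each position (horizontal axis), for cluster sequence within 100 bp of a piRNA start, other cluster sequence and the rest of chromosome IV; vertical bars span the values of the 2 replicate lists. All 3 curves climb together, and bands with under 0.02 Mb of sequence are left out.

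Repeat-masked sequence also differed, at 45.4% of the second cluster, 35.4% of the first and 36.02% of the rest. With masked bases left out, likewise chosen after the data were seen, the density ratio was 0.887.

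Cluster peaks did not rank steadily higher or lower than other peaks of the chromosome. The median rank of pooled cluster peaks was 13921, against 14909 for the rest of chromosome IV, a difference of −988 places (clusters minus rest). In the list of replicate 1 the medians were 14556 in the clusters and 14447 in the rest. In that of replicate 2 they were 15260 in the clusters and 14432 in the rest. The direction in the pooled list was thus found in neither replicate, and quartiles overlapped almost fully, from 6731 to 22254 in the clusters and from 7260 to 22279 in the rest.

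The strongest peaks were about as frequent in the clusters as in the rest of the chromosome. Ranks 1 to 1000 held 61 of the 1549 pooled cluster peaks (3.94%, interval 3.03 to 5.03) and 146 of the 3469 others (4.21%, 3.56 to 4.93), against 3.33% of all pooled peaks. Of the 61, 29 lay in the first cluster and 32 in the second. Exons held 21 of them, promoters 14, intergenic sequence 10, introns 8, starts of other non-coding genes 7 and tRNA gene starts 1. A summit of each replicate lay within 100 bp of 52 of the 61 (85.2%), against 82.3% of ranks 1 to 1000 over all chromosomes.

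Over all ranks, most cluster peaks were not found again in both replicates. Summits of both replicates lay within 100 bp of 444 of the 1549 cluster peaks (28.7%, interval 26.4 to 31.0) and of 938 of the 3469 peaks in the rest of the chromosome (27.0%, 25.6 to 28.6), against 27.0% of all pooled peaks. The share was 29.5% in the first cluster and 28.0% in the second, so all of these lay near the background. It depended on rank, as it did over all chromosomes. Both replicates held 85.2% of cluster peaks of rank 1 to 1000, against 82.3% over all chromosomes. After rank 1000 up to 10000 the shares were 50% and 53.7%, and beyond that 13.9% and 12.2%. The list of replicate 2 held 71.3% of the cluster peaks and that of replicate 1 held 47.8%, against 69.5% and 47.2% of all pooled peaks. Among the 5000 strongest peaks the difference between clusters and rest turned to −1.37 percentage points, from the 1.62 seen over all ranks.

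Even peaks found in both replicates often ranked far apart. Among the 444, the median gap between the ranks in the replicates was 7726 places, against 7435 for the 938 in the rest of the chromosome. Among the 1000 strongest of both replicates were 11 of the 1549 pooled cluster peaks (0.710%), 6 in the first cluster and 5 in the second. In the rest there were 17 of the 3469 (0.490%). With counts this small the shares cannot be told apart, and this share was not computed over all chromosomes.

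The thresholded list held 9 cluster peaks, 0.581% of those in the pooled list, and 16 in the rest of the chromosome (0.461%), against 0.383% of all pooled peaks. With so few peaks the shares carry wide counting error. Of the 9, 3 lay in the first cluster and 6 in the second. Within 100 bp of a piRNA start lay 0 of the 9 summits, against 15.6% of all pooled cluster peaks. These 9 peaks are too few to tell the shares apart.

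The 3 thresholded peaks of the first cluster were all in promoters, here the 1000 bp before and the 300 bp after the start of a protein-coding gene. The first (chrIV:6206401-6206784, summit 6206593) ranked 30 in the pooled list, 35 in replicate 1 and 32 in replicate 2, and lay 249 bp upstream of C49A9.10. The second (chrIV:4749872-4750255, summit 4750064) ranked 31, 40 and 34 in the same lists. It lay between divergent genes, 286 bp upstream of rpl-20, which encodes a protein of the large ribosomal subunit, and 176 bp upstream of Y17G9B.5. The last (chrIV:6321712-6322095, summit 6321904) ranked 34, 37 and 36 and lay 25 bp upstream of Y73B6BL.29. All 3 thus held nearly the same rank in every list.

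Those of the second cluster were spread over several kinds of sequence and less even between replicates. The strongest (chrIV:14033914-14034297, summit 14034106) ranked 4 in the pooled list, 9 in replicate 1 and 4 in replicate 2. Its summit fell in the exon of cel-mir-52, a microRNA gene, 98 bp downstream of its annotated start. Start windows of 4 short non-coding RNA genes, the nearest with its start 16 bp away, also held that summit. The motif CTGTTTCA lay within 50 bp of it, on the minus strand. The nearest piRNA start was 1095 bp away.

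Another pair of peaks lay close together in an intron of Y65A5A.2, with summits at 16415283 and 16415795. The first ranked 21 in the pooled list, 15 in replicate 1 and 46 in replicate 2, and the second ranked 29, 116 and 19. Each was thus the stronger of the pair in 1 replicate. The nearest piRNA starts were 18035 and 17523 bp away, a gap in the piRNA genes of the cluster.

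The other 3 ranked lower, and 2 of them were uneven between the replicates. The peak at 16237774, in an exon of the chemoreceptor gene srw-61, ranked 45 in the pooled list, 1318 in replicate 1 and 30 in replicate 2. It lies within 25 kb of hlh-17, of which the strain carries extra copies, and their part in this peak was not tested. The peak at 14403177, in an exon of xdh-1, which encodes a xanthine dehydrogenase of purine breakdown, ranked 93, 958 and 73. The intergenic peak at 14903575 ranked 107, 287 and 304. Those in srw-61 and xdh-1 thus ranked far higher in replicate 2 than in replicate 1. The xdh-1 peak lay 188 bp and the intergenic peak 309 bp from the nearest piRNA start, closer than any other peak of the 9.

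**Figure D3:**
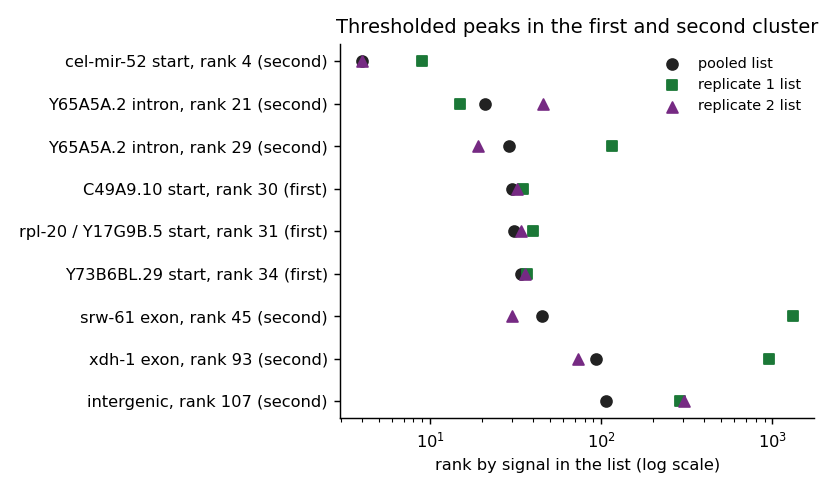
Rank by signal (horizontal axis, log scale) of the 9 thresholded cluster peaks in the pooled list and in the list of each replicate, from the strongest at the top, with the cluster in brackets. The 3 peaks of the first cluster stay between ranks 30 and 40 in all lists, while srw-61 and xdh-1 rank 1318 and 958 in replicate 1.

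Part of the strong peaks shared sequence. Among the 36 pairs of the 9 thresholded summits, the longest run of letters in common, within 50 bp of each summit and on either strand, had a median of 7 letters. The pair in Y65A5A.2 had 25 letters in common. The peak at Y73B6BL.29 had 20 in common with the second of that pair and 17 with the first, on the opposite strand. Every other pair had fewer than 12.

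The 17-letter word in capitals above is the longest found, on either strand, within 50 bp of at least 3 of the 9 summits, a rule chosen after these data had been seen. Its presence at 3 of the 9 follows from that rule and is no finding. On both strands of chromosome IV, the first cluster held 3 copies, the second 2 and the rest 2, so 0.0342%, 0.0154% and 0.00505% of all windows within 150 bp of a position held it. Pooled summits lay within 150 bp of 1 copy in the first cluster, both in the second and 1 in the rest, and those in the clusters are the summits that chose the word. The other copies in the first cluster had no pooled peak that close.

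E-boxes, CANNTG, the motif bound by the helix-loop-helix family, were more frequent in peaks of the first cluster than in those of the second or of the rest of the chromosome. On both strands, one lay within 50 bp of 43.7% of pooled summits in the first cluster, 35.8% in the second and 37.4% in the rest. Of all windows of that size, 32.3%, 28.5% and 32.5% held one. In the pooled list, summits thus held an E-box more often than windows did in both clusters and in the rest. Summits were also richer in GC than the windows, which were not matched for it, and the part of GC content was not tested. Of the 9 thresholded cluster summits, 3 had an E-box, those at C49A9.10, srw-61 and xdh-1.

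Further strong peaks in the clusters lay in promoters, exons, introns and intergenic sequence. In the first cluster, ranks 153, 186, 210, 271, 293, 316 and 322 followed the thresholded peaks. Rank 153 lay 315 bp upstream of sqd-1, an RNA-binding protein gene, and ranked 96 in replicate 1 and 727 in replicate 2. Rank 186 lay in an exon of lip-1, a phosphatase of MAP kinase signalling, rank 271 in an exon of the collagen gene col-111, and rank 316 in an exon of fem-1, a gene of sex determination. Rank 210 was intergenic, 1976 bp upstream of the microRNA gene cel-mir-790, rank 293 lay in the exon of a pseudogene and rank 322 lay 620 bp upstream of ZK185.1. In the second cluster, rank 136 was intergenic, rank 163 lay in an exon of Y37A1A.2, and rank 236 in an intron of rom-4, a rhomboid protease gene. Rank 136 was 56 in replicate 2 but 17258 in replicate 1, and ranks 236 and 316 had no summit of replicate 1 within 100 bp.

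Fewer summits lay at piRNA starts than an even spread along the clusters would give. A summit counted as at a piRNA start when the 5′ end of an annotated piRNA gene lay within 100 bp, and as beside one when the nearest start lay over 100 and up to 1000 bp away. Of the 1549 pooled cluster peaks, 241 were at a start (15.6%, interval 13.8 to 17.5), although 29.8% of cluster bases lay that close, a ratio of 0.522. The ratio was 0.567 in the list of replicate 1 (265 peaks) and 0.619 in that of replicate 2 (295 peaks). Beside starts there were 824 pooled peaks, 53.2% against 40.8% of bases, a ratio of 1.305, and in the replicates 1.20 and 1.28. Farther away there were 484, a ratio of 1.06. All lists thus had fewer summits than bases at starts and more summits than bases beside them.

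Both clusters showed this order. In the first cluster 58 peaks were at a start, with a ratio of 0.473 in the pooled list, 0.539 in replicate 1 and 0.646 in replicate 2. In the second cluster 183 peaks were, with ratios of 0.576, 0.611 and 0.653. The first cluster has fewer piRNA genes, so 16.97% of its bases and 38.5% of those of the second lay within 100 bp of a start.

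Distance in finer steps gave the lowest ratios next to the start. Within 50 bp the pooled ratio was 0.442 in the first cluster and 0.565 in the second. Over 50 and up to 100 bp it was 0.508 and 0.591. It was highest over 200 and up to 300 bp from the start, at 1.45 in the first cluster and 1.91 in the second, and near 1 beyond 750 bp (0.908 and 1.05). In the list of replicate 1 the highest ratio fell later, at 1.33 over 400 and up to 500 bp in the first cluster and at 1.91 over 300 and up to 400 bp in the second. Shearing to 200 to 800 bp and a peak width of 384 bp in nearly all pooled peaks limit how finely such distances can be read.

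**Figure D4:**
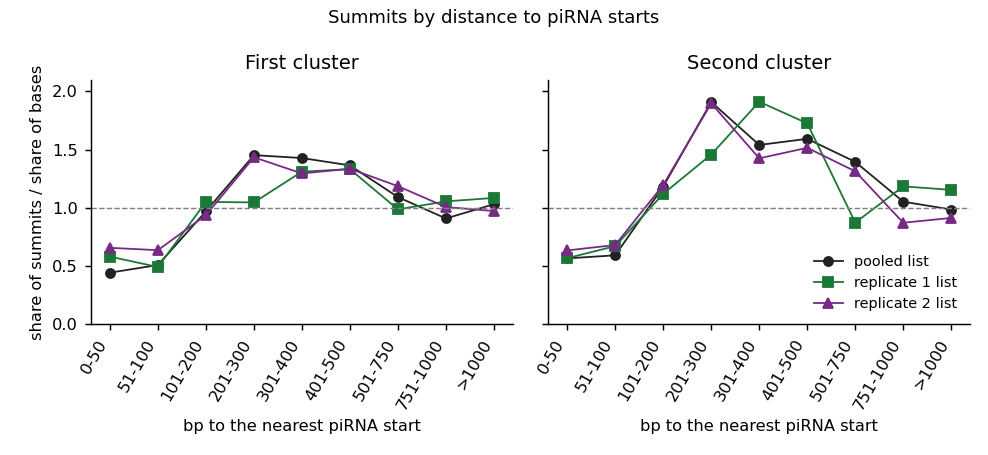
Share of summits divided by the share of bases (vertical axis) by distance to the nearest piRNA start in bp (horizontal axis), for the first cluster (left) and the second cluster (right), with 1 line per list; the dashed line marks an even spread. Ratios within 100 bp of a start lie below 1 in all 3 lists and reach up to 1.91 between 200 and 400 bp in the second cluster.

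GC content moved with this difference. Bases within 100 bp of a start had a GC content of 28.2%, and those beside starts 33.7%. Summits at starts averaged 33.8%, and those beside them 39.5%. With the bases weighted to the GC content of the summits, an alternative chosen after the data were seen, the ratio at starts was 0.931 over both clusters, 0.820 in the first and 1.009 in the second. In the band from 35 to 40% GC, sequence at starts had 409 pooled peaks per Mb and other cluster sequence 381. In that from 25 to 30% they had 82.1 and 120 per Mb. Weighted to the location classes of the summits instead, the ratio was 0.639.

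Within each kind of location other than tRNA gene starts, which were left out, the ratio at piRNA starts also stayed below 1. It was 0.581 in promoters, 0.572 at starts of other non-coding genes, 0.786 in exons, 0.572 in introns and 0.687 in intergenic sequence, in the pooled list over both clusters. In the replicates these ratios spanned 0.413 to 0.867. None of them was weighted for GC content. Among the 5000 strongest peaks the ratio fell to 0.279, so strong peaks were at starts less often still.

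Over both clusters, peaks at piRNA starts also ranked lower than those beside them. Their median rank was 16182 at starts and 14120 beside them in the pooled list, 16932 and 14353 in replicate 1, and 16796 and 15406 in replicate 2. The order was the same in all 3 lists, with wide quartiles (9888 to 23328 at starts, 6550 to 22191 beside them in the pooled list). The difference was larger in the second cluster in the pooled list and in replicate 1. In replicate 2 it was larger in the first cluster, at 2090 places against 834.5 in the second. The pooled medians of the second cluster were 17233 at starts and 14369 beside them. In the first they were 13562 and 13239, and there the difference, at starts minus beside, turned to −981 with a limit of 50 bp and to −663 with one of 200 bp. It was also −663 within introns and intergenic sequence, so the first cluster showed no steady order. Over both clusters, the difference within introns and intergenic sequence was 730 places, against 2062 over all locations. Ranks 1 to 1000 held 5 of the 241 peaks at starts and 32 of the 824 beside them, against 3.33% of all pooled peaks. Counts this small carry wide counting error.

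Peaks at starts were found in both replicates in 24.1% of cases (interval 18.8 to 29.97) and those beside them in 29.1% (26.04 to 32.4). The clusters differed in this. The share was 34.5% at starts and 29.1% beside them in the first cluster, and 20.8% and 29.1% in the second. The intervals overlap in both, at 22.5 to 48.1 and 24.4 to 34.2 in the first cluster and at 15.1 to 27.4 and 25.1 to 33.4 in the second.

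Seen from the genes, few piRNA starts had a summit nearby. A pooled summit lay within 100 bp of 339 of the 14204 cluster starts (2.39%), and summits of replicate 1 and replicate 2 near 366 and 418. Only 69 starts had one in both replicates. Outside the clusters, on all chromosomes, a pooled summit lay near 59 of 1159 piRNA starts (5.09%), and in the replicates near 59 and 61. Cluster starts can share a summit, since they lie closely spaced. The starts inside and outside the clusters were not matched for peak density or GC content.

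Starts with and without the upstream motif were alike in the pooled list. Over both clusters, those with it more often had a summit in each replicate list taken alone. Summits of both replicates lay within 100 bp of 23 starts with the motif (0.463%) and 46 without it (0.498%). With CTGTTTCA in the 80 bp upstream, 119 of 4968 cluster starts (2.40%) had a pooled summit within 100 bp, and without it 220 of 9236 (2.38%). In replicate 1 the shares were 2.86% with the motif and 2.43% without it, and in replicate 2 they were 3.26% and 2.77%. In the first cluster they were 4.64% and 3.07% in replicate 2, but 2.59% and 3.19% in replicate 1, so the direction was not the same in both. Searched on both strands within 50 bp of summits, the motif was in 2.90% of those in the first cluster and 3.995% of those in the second. Of all windows of that size 4.98% and 8.97% held it. Summits were thus poorer in the motif than the clusters as a whole, and in the rest of the chromosome 0.663% of summits and 0.760% of windows had it. The motif lies close to piRNA starts, so this is not separate from the low number of summits at starts. Of the summits at piRNA starts, 22.4% in the first cluster and 13.7% in the second held it. Here too the windows were not matched to the summits for GC content.

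The strongest peak at a piRNA start in the second cluster ranked 302 in the pooled list, 1644 in replicate 1 and 361 in replicate 2. Its summit (chrIV, 16536112) lay 23 bp downstream of the start of 21ur-2623 and 26 bp downstream of that of 21ur-4343, in an intron of uroc-1. Next came rank 314, 42 bp upstream of 21ur-14657 in intergenic sequence, which ranked 2119 and 529 in the replicates, and its printed sequence holds the motif 44 bp before the piRNA. Rank 885 lay 43 bp downstream of 21ur-10844 and ranked 509 and 2060, with the motif 48 bp before the piRNA. Ranks 950 and 1013 lay 77 bp downstream of 21ur-3437 and 87 bp upstream of 21ur-6634. The summits fell on both sides of the starts.

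In the first cluster the strongest peak at a piRNA start ranked 416, lay 14 bp downstream of 21ur-12897 and within 18 bp of 21ur-14847 and 21ur-14234, and ranked 355 in replicate 2. Replicate 1 had its nearest summit 125 bp away. The next ranked 2018 (82 bp from 21ur-9957, in an exon of the chemoreceptor gene srv-28), 2284 (61 bp from 21ur-13745), 2378 (17 bp from 21ur-5484, in an intron of the forkhead factor gene fkh-7) and 3093 (77 bp from 21ur-10662, in an exon of hot-9). Of these 5, those of rank 2378 and 3093 had a summit of both replicates within 100 bp. The one at hot-9 ranked 3485 in replicate 1 and 5354 in replicate 2.

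Exons held more cluster summits than their share of bases, and intergenic sequence and introns fewer. Exons held 498 of the 1549 pooled summits (32.1%, interval 29.8 to 34.5) but 15.3% of cluster bases. In the rest of the chromosome they held 34.6% of summits and 22.6% of bases. Intergenic sequence held 18.5% of summits and 31.97% of bases in the clusters, and 14.1% and 16.8% in the rest. Introns held 19.8% of summits and 26.1% of bases in the clusters, and 20.9% and 28.6% in the rest. The ratio of summits to bases in exons was 2.099 in the pooled list, 1.98 in replicate 1 and 2.03 in replicate 2, against 1.53, 1.44 and 1.49 in the rest of the chromosome. The exon excess was thus larger in the clusters in every list. This ratio is taken against the overall peak density, which was lower in the clusters. Exons themselves had 524 pooled peaks per Mb in the clusters and 469 in the rest, a smaller difference. They were not matched for GC content.

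The exon excess was larger in the second cluster. There exons held 29.4% of summits and 12.4% of bases, a ratio of 2.36, and in the first cluster 35.3% and 19.6%, a ratio of 1.80. Peak density in exons was 528 per Mb in the second cluster, 521 in the first and 469 in the rest of the chromosome. In intergenic sequence it was 136, 167 and 258 per Mb. Exons of the clusters were thus no poorer in peaks than those outside, while their intergenic sequence, which makes up 39.2% of the second cluster, was. With location classes weighted as in the clusters, the density ratio to the rest of the chromosome was 0.855.

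Promoters held 293 cluster summits (18.9%, interval 16.99 to 20.96) and 726 in the rest (20.9%, 19.6 to 22.3), against 17.8% and 23.6% of bases. The difference of −2.01 percentage points was −0.0643 with a promoter from 500 bp upstream to 100 bp downstream. Set against bases, the order was the opposite. The ratio of summits to bases was 1.06, 1.04 and 1.05 in the clusters, in the pooled, replicate 1 and replicate 2 lists. In the rest it was 0.887, 0.921 and 0.883. Counted by genes, 31.3% of the 482 protein-coding genes of the first cluster and 29.2% of the 459 of the second had a pooled summit in the promoter, against 30.2% of the 2340 in the rest of the chromosome. The genes of the clusters thus did not stand apart.

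**Figure D5:**
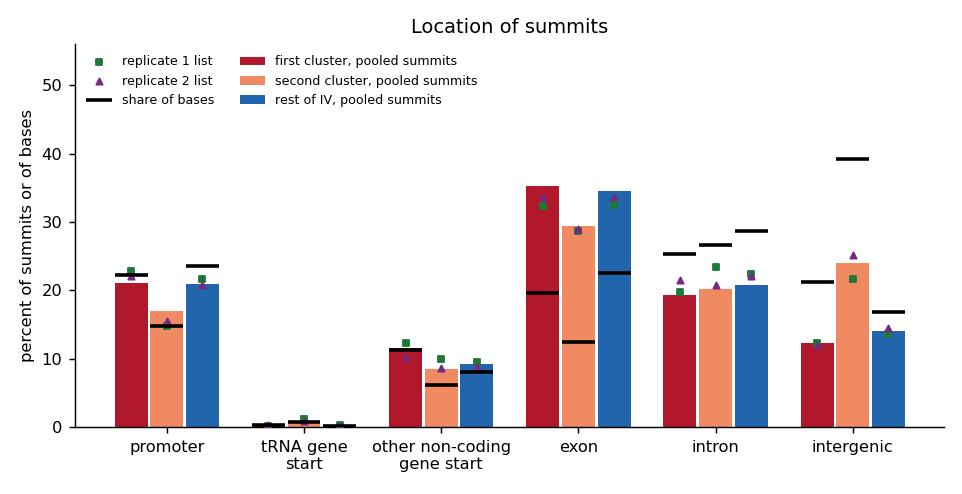
Percent of pooled summits (bars) in each kind of location for the first cluster, the second cluster and the rest of chromosome IV, with the replicate lists as points and the percent of bases as black lines. Bars stand above the lines in exons and below them in introns and intergenic sequence, where the second cluster holds 24.0% of summits and 39.2% of bases.

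Few genes that make or use piRNAs had a peak in the promoter. The list held genes of piRNA transcription, of processing and of Argonaute-mediated silencing, and 17 of its 18 names were found in the annotation. A pooled summit lay in the promoter of 2 of the 17, against 32.04% of all 19973 protein-coding genes. They were snpc-4, a subunit of the complex that starts transcription of small RNA genes (rank 9435), and erh-2, a factor of piRNA processing (rank 16391). A promoter summit found in both replicates was present at 0 of the 17, against 9.56% of all protein-coding genes, and a thresholded one at 0, against 73 of 19973. The transcription factor genes prde-1, tofu-4, tofu-5, snpc-1.3 and attf-6, and the Piwi gene prg-1, had 0. With so few genes the shares cannot be told apart.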

How the data were processed

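Peak lists of 2 biological replicates, a pooled list and a thresholded list, all on ce11, were used as deposited. The authors called relaxed peaks for each replicate and for both together against a control, and kept peaks by the irreproducible discovery rate, per the deposited notes. Which aligner and caller made them is not given in the sources used here. Each deposited signal value has no stated scale and was used only to rank peaks within a list. The deposited summit offset was added to the peak start. Peak lists carry no read numbers, so depth is unknown.

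Members were peaks with summits in the windows. Genes came from Ensembl release 115 (WBcel235) and sequence from RefSeq. Summits took the first class that applied: promoter, start window of tRNA genes, start window of other non-coding genes (without piRNA genes), exon, intron, intergenic. A peak counted as found with a replicate summit within 100 bp. GC content was taken within 50 bp. Intervals are exact Clopper-Pearson 95% intervals (scipy 1.17.1, Python 3.11.15). With 1 group no statistical test was made. The code for density and piRNA-start ratios was checked on simulated positions. Replicate numbers came from the labels.

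Named peaks were the thresholded peaks, the 10 strongest pooled peaks of each cluster and the 5 strongest at piRNA starts in each, with genes by start window, else within 2 kb, plus the gene holding the summit. The members and lists were chosen with earlier results of these data known. Alternatives varied the replicate, bounds, distances, promoter size, comparison chromosomes, depth of the list and merging of summits.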

Additional observations from a re-analysis of the deposited data

How the results depend on the processing

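The density ratio of clusters to the rest of chromosome IV was 0.813. It was 0.824 and 0.865 in the lists of single replicates, 0.848 with windows widened by 0.25 Mb at each end and 0.866 among the 5000 strongest peaks. Alternatives chosen after the data were seen gave 0.855 (location classes weighted), 0.995 (GC content weighted) and 0.887 (masked bases left out). The ratio of the first cluster alone was 0.941 to 1.014 in single replicates, 1.003 among the 5000 strongest peaks and 1.07 with GC content weighted. That of the second cluster alone, 0.727, was 0.939 with GC content weighted and 0.839 with masked bases left out. The difference in median rank, −988, was 109 to 829 in the lists of single replicates, −191 to 1040 for the first cluster, and 388 to 657 for the second. The share found in both replicates, 1.62 points higher, was −1.37 among the 5000 strongest. The ratio at piRNA starts, 0.522, was 0.567 to 0.619 in single replicates, 0.713 within 200 bp, 0.279 among the 5000 strongest, 0.625 in introns and intergenic sequence, 0.639 with classes weighted and 0.931 with GC content weighted, where the second cluster was at 1.009. The rank difference at starts, 2062, was 730 in introns and intergenic sequence. The promoter difference in the share of summits, not set against bases, was −2.01 points. It was −3.17 to −2.21 in single replicates, −0.0643 with the short window and −0.966 with widened windows. Against chromosomes I, II, III and V it was −4.28 (−2.17 for the first cluster), and among the 5000 strongest −2.91. The causes were not tested. No paired analysis was possible because the replicates form 1 group. Depth is unknown, and relaxed lists of a fixed length hold many peaks found in 1 list only.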

Other observations

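piRNA genes also occur outside the clusters. On chromosome IV, 175 of these 510 genes lie in the 0.294 Mb right of the second cluster, at 596 per Mb. On chromosome IV outside the clusters, a pooled summit lay within 100 bp of 28 of 510 piRNA starts (5.49%), on V of 12 of 202, on X of 7 of 162, on I and II of 5 each of 98 and 109, and on III of 2 of 78. In the cluster starts the share was 2.39%, and these sets were not matched for peak density or GC content.

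The gene hlh-17 lies in the second cluster, and the strain carries extra copies of it. Within 25 kb of its start there were 18, 11 and 17 summits in the pooled, replicate 1 and replicate 2 lists, which is 360, 220 and 340 per Mb, against 223, 229 and 228 per Mb over the whole second cluster. The strongest of them in the pooled list is the thresholded peak of rank 45 in srw-61. Replicate 1 thus lay near the cluster and the other lists above it. Without this stretch the density ratio of clusters to the rest was 0.81. Whether the extra copies add to these peaks was not tested.

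Upstream and downstream sides of piRNA starts were not equal. In steps of 100 bp along the strand of the gene, the ratio of summits to the cluster mean, centred 50 bp from the start, was 0.381 upstream and 0.528 downstream in the first cluster and 0.405 and 0.629 in the second, in the pooled list. In replicate 1 it was 0.393 upstream and 0.615 downstream in the first cluster and 0.479 and 0.595 in the second. In replicate 2 it was 0.446 and 0.762 in the first cluster, while in the second it was 0.608 upstream and 0.593 downstream. Centred 150 bp from the start, the upstream ratio was the lower one in both clusters and all 3 lists. Starts lie closely spaced, so a summit counts for several of them, and the GC content of the sides was not compared.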
